A study of Mus musculus with 14 samples.

Results

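The pancreas and liver transcripts described here are those of 10 genes that mark organs other than fat, followed through every library of an adipose tissue series: 6 digestive enzyme genes of the exocrine pancreas (Prss2, Cela2a, Cpa1, Ctrb1, Pnlip and Clps) and 4 plasma protein genes of the liver (Alb, Apoa1, Apoa2 and Ttr). They were chosen by name from the authors' table of TPM, a length-scaled share of all transcripts that can be compared between genes. All 10 were found, each as 1 row, among 54955 names. The libraries came from adipose tissue of C57BL/6 mice aged 21 weeks. There were 7 wild-type libraries (WT, replicates 3 to 9) and 7 libraries labelled as knockout for Dectin-1 (KO, replicates 1 to 7), the β-glucan receptor that Clec7a encodes. The labels name no fat depot, sex or line for the knockout, and the libraries were treated as separate mice. In bulk tissue, fewer cells of a type and less RNA per cell cannot be told apart.

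Acinar cells of the pancreas devote most of their RNA to a small set of secreted digestive proenzymes, under transcription factors such as Ptf1a and Rbpjl. Hepatocytes supply most of the plasma's albumin, apolipoproteins and transport proteins. Neither program is a known part of the adipocyte, although fat itself makes some plasma proteins, such as haptoglobin and retinol binding protein.

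The pancreas genes were read at low values in all 14 libraries, each within a 4.27-fold range. The liver genes ranged from near 0 to 2153 TPM. The summed pancreas genes ran from 73.1 to 262 TPM (median 109). The summed liver genes ran from 15.5 to 4573 TPM (median 121). The ratio of the liver sum to the pancreas sum ran from 0.212 in WT replicate 6 to 19.2 in KO replicate 6. No gene of either set passed the test of KO against WT across all genes.

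Several libraries stood apart before any comparison was made. WT replicate 8 held the highest value of all 10 genes, so results that rest on it are given with and without it. KO replicate 7 and WT replicates 4 and 7 held 0.62 to 1.52 TPM of the B-cell gene Cd79a, against 177 to 720 in the other 11 libraries. Skeletal muscle transcripts, summed over 17 genes, ran from 30.5 to 28173 TPM and were highest in WT replicate 4. Fat itself was present throughout, with the adipocyte hormone gene Adipoq at 683 to 4068 TPM. Clec7a, the targeted gene, had a mean of 6.94 TPM (SD 2.61) over the 7 KO libraries and of 10.99 TPM (SD 5.99) over the 7 WT libraries. With an exact permutation p of 0.21 it did not separate the groups, and KO means libraries labelled KO throughout. A gene-level value does not show which exons were read.

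The 6 digestive enzyme genes are described first, in the order of their level. Ctrb1 (ENSMUSG00000031957), which encodes the proenzyme of chymotrypsin, was the most abundant of the 6 in every library. Its level was 35.6, 38.2 and 50.6 TPM (lowest, median, highest) in KO and 28.01, 44.4 and 94.0 TPM in WT. Cela2a (ENSMUSG00000058579), a pancreatic elastase, stood at 16.3, 18.3 and 22.4 TPM in KO and 13.7, 23.2 and 52.7 TPM in WT. For both, the WT libraries reached further up and further down than the KO libraries.

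Prss2 (ENSMUSG00000057163), a trypsinogen, stood at 15.1, 17.6 and 20.6 TPM (lowest, median, highest) in KO and 14.2, 20.8 and 45.8 TPM in WT. Pnlip (ENSMUSG00000046008), the pancreatic triglyceride lipase, stood at 9.03, 11.3 and 11.5 TPM in KO and 7.55, 12.3 and 28.6 TPM in WT. Clps (ENSMUSG00000024225) encodes colipase, the cofactor that holds that lipase on fat droplets in the presence of bile salts. Its level was 7.53, 8.89 and 10.5 TPM in KO and 5.94, 10.2 and 25.4 TPM in WT. Cpa1 (ENSMUSG00000054446), a carboxypeptidase, was the least abundant at 4.93, 5.74 and 6.62 TPM in KO and 3.64, 7.04 and 15.3 TPM in WT. All 6 were lowest in WT replicate 6 and highest in WT replicate 8, and for all 6 the KO range lay inside the WT range.

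The spread of the enzyme genes was modest, and smaller than that of most genes only without WT replicate 8. The highest library exceeded the lowest by 3.22-fold (Prss2) to 4.27-fold (Clps), and without WT replicate 8 by 1.66-fold (Prss2) to 2.73-fold (Cpa1). The coefficient of variation (CV, the SD as a percentage of the mean) over 14 libraries was 34.4% to 46.9%, where the 14719 genes tested had a median of 32.4%. Without WT replicate 8 it was 14.7% to 27.7%, against a median of 33.2% over the same genes. With all 14 libraries each of the 6 varied more than the median gene, and without WT replicate 8 each varied less: 5.53% of genes had a lower CV than Pnlip and 37.4% a lower CV than Clps. Within the KO group the SD was 0.932 TPM for Pnlip around a mean of 10.7, and 5.60 TPM for Ctrb1 around a mean of 40.8.

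**Figure D1:**
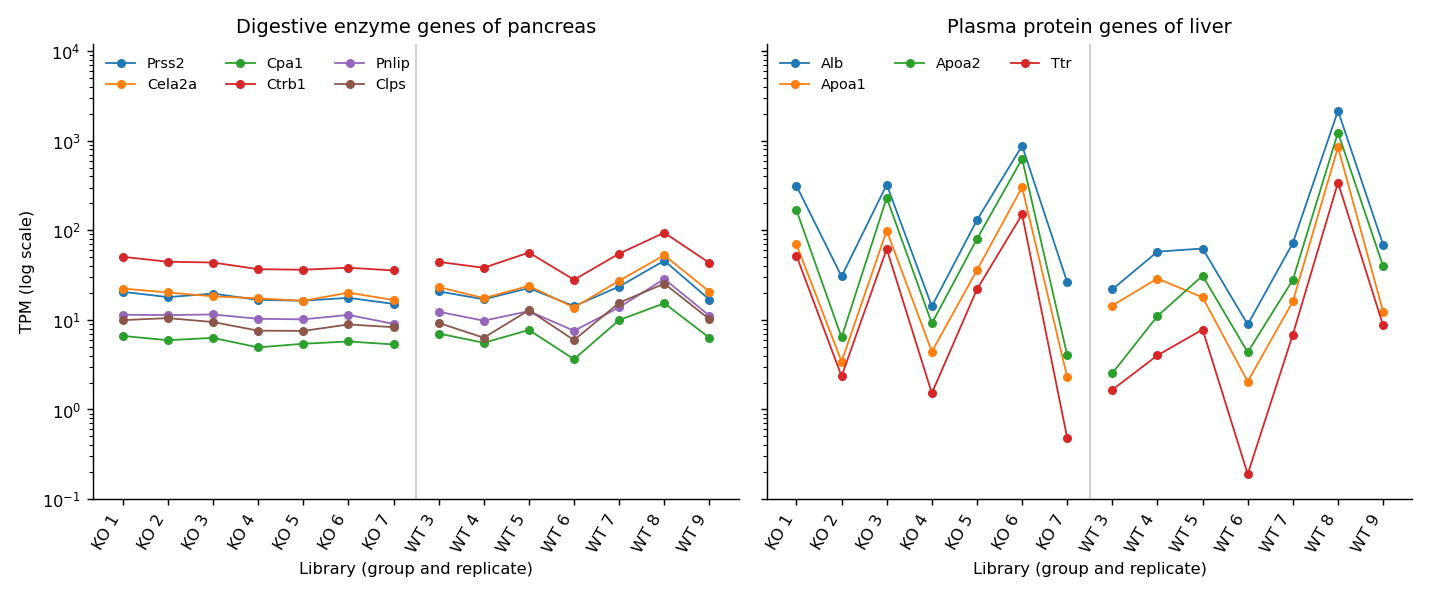
TPM of the 6 pancreas genes (left) and the 4 liver genes (right) on a shared log axis, by library, with KO to the left of each grey line and WT to the right; points are single libraries and lines join the points of a gene. The pancreas genes stay between 3.64 and 94.0 TPM and nearly parallel, while the liver genes span 0.19 to 2153 TPM.

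Their proportions were also close to constant. Ctrb1 made up 35.9% to 41.6% of the summed 6 genes over the 14 libraries (39.3% ± 1.60, SD, n = 14), and Prss2 15.6% to 19.5% (17.3% ± 0.985). Cela2a made up 16.8% to 20.1%, Pnlip 9.20% to 11.1%, Clps 6.70% to 10.7% and Cpa1 4.98% to 6.86%. Relative to its mean, the share of Clps varied most (8.75% ± 0.989). The ratio of Pnlip to its cofactor Clps ran from 0.889 in WT replicate 7 to 1.55 in WT replicate 4. WT replicate 8, with the highest sum, had the lowest share of Ctrb1 and the highest share of Cela2a.

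Prss2 belongs to a family of near-identical trypsinogens on chromosome 6, and the authors' treatment of reads shared between genes is not given in the sources used here. In the GENCODE M21 transcripts, 22.5% of the 31-base windows of Prss2 also occur in another gene. The same holds for 82.7% of the windows of Try4 and 60.9% of those of Try5, so the split of trypsinogen reads among these 3 is uncertain. Over 738 coding bases Try4 is identical to Prss2 at 91.7%, Try5 at 90.4% and Try10 at 90.1%. The opening 60 coding bases are shown because they show how alike the family is; they are from GENCODE M21, read 5′ to 3′, and capitals mark bases that differ from Prss2.
Prss2: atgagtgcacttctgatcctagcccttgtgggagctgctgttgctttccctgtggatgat
Try4: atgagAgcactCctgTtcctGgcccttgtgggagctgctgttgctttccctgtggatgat
Try5: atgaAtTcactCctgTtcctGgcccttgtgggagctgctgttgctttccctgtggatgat
Try10: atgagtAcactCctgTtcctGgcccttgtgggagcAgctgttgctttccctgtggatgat
The copies did not share 1 level: Try4 stood at 14.3 to 58.8 TPM and Try5 at 7.56 to 29.3 TPM, both highest in WT replicate 8, while Try10 stayed at 0.07 to 0.47 TPM. Cela2a shares 16.6% of its windows with the transcripts of Ctrc, a chymotrypsin-like gene listed at 0.57 TPM or less. The other 8 genes share no window with another gene.

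Most other acinar enzymes were read in the same way, while the acinar transcription factors were low. Of 25 other acinar enzyme genes in the table, 20 reached 1 TPM in some library and 13 reached it in all 14. Of the 20, 15 were highest in WT replicate 8. The most abundant were Amy2a4 and Amy2a1, pancreatic amylases, at 25.9 to 99.2 and 18.7 to 62.6 TPM. Cela1, an elastase, stood at 13.99 to 47.9 TPM and Ctrl, a chymotrypsin-like protease, at 5.37 to 16.9 TPM. Another amylase gene, Amy2a5, was at 12.1 TPM in KO replicate 5 with a median of 0.175 TPM. In that library a further amylase gene, Amy2a3, was at 0 TPM. Windows shared among the amylase genes were not counted, and the split of reads among them was not tested.

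Among the secreted and granule genes of acinar cells, Zg16, a zymogen granule protein also made in gut, was the most abundant at 4.27 to 51.6 TPM. In WT replicate 8 it was 7.35 times the median of the other libraries. Reg1 stood at 5.89 to 16.3 TPM and Sycn, another granule protein, at 3.76 to 11.8 TPM, with factors of 2.04 and 2.10 in that library. Spink1, a trypsin inhibitor, was at 9.29 TPM in WT replicate 8 with a median of 0.515 TPM. The acinar transcription factor Ptf1a was listed at 0 in all 14 libraries and Rbpjl did not exceed 0.18 TPM. Bhlha15 did not exceed 0.41 TPM. The other 3 factors on the list, which other tissues also express, were higher: Mecom stood at 1.19 to 4.51 TPM, Nr5a2 reached 1.40 TPM and Gata4 1.94 TPM. Ptf1a and Rbpjl are made at far lower levels than the enzymes in pancreas itself, and the depth of the libraries is unknown, so the values set no limit on acinar cells. Of the islet hormone genes, Ins2 stood at 0.24 to 1.99 TPM, Ins1 at 0.30 TPM or less and Gcg at 0.39 TPM or less. Ttr, which islets also make, is counted with the liver genes.

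**Figure D2:**
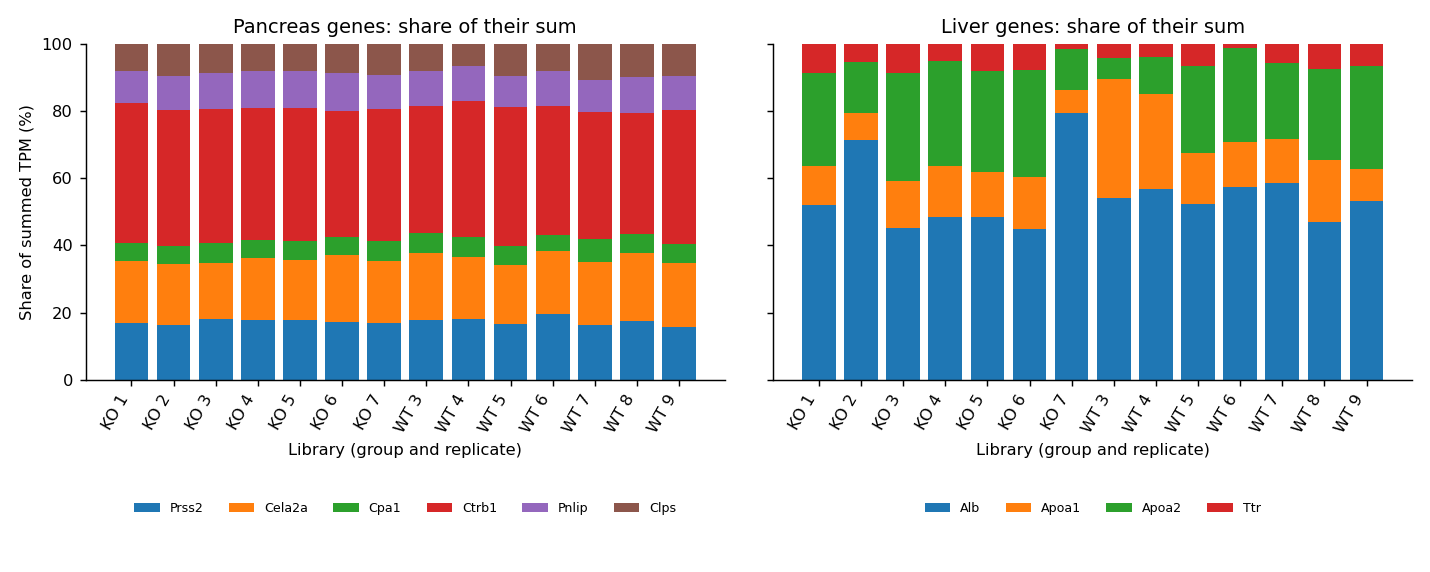
Share of each gene in the summed TPM of the 6 pancreas genes (left) and of the 4 liver genes (right), in percent, for each library. The pancreas shares are alike in all libraries, while Alb runs from 44.9% to 79.4% of the liver sum and Apoa1 from 6.95% to 35.6%.

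The 4 liver genes were in a different range. Alb (ENSMUSG00000029368), serum albumin, stood at 14.2, 130 and 879 TPM (lowest, median, highest) in KO and 8.88, 62.6 and 2153 TPM in WT. The next library below WT replicate 8 and KO replicate 6 was KO replicate 3 at 323 TPM. Apoa2 (ENSMUSG00000005681), a structural protein of high-density lipoprotein, stood at 4.03, 79.9 and 628 TPM in KO and 2.54, 27.99 and 1233 TPM in WT. The groups overlapped, but at the top through WT replicate 8 alone. Without it, WT reached 72.2 TPM of Alb and 39.7 TPM of Apoa2, and 4 of 7 KO libraries lay above that for both genes.

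Apoa1 (ENSMUSG00000032083), the main protein of high-density lipoprotein, stood at 2.30, 35.9 and 302 TPM in KO and 2.05, 16.1 and 846 TPM in WT. Ttr (ENSMUSG00000061808), the carrier of thyroxine and retinol binding protein, stood at 0.48, 21.9 and 150 TPM in KO and 0.19, 6.86 and 341 TPM in WT. In each of the 4 the highest libraries were WT replicate 8, KO replicate 6 and KO replicate 3, in that order. WT replicate 6 was the lowest for all but Apoa2, which was lowest in WT replicate 3.

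The highest library exceeded the lowest by 242-fold for Alb, 413-fold for Apoa1, 486-fold for Apoa2 and 1794-fold for Ttr. Without WT replicate 8 these folds were 99.0, 147, 247 and 791. The CV was 196% to 219% with all libraries and 156% to 183% without WT replicate 8, so at least 99.1% of genes tested had a lower CV in either case. Of all genes tested, 7.75% spanned 100-fold or more. The 4 liver genes did and none of the 6 pancreas genes did.

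The liver sum also differed widely within a group. In KO it was 1959 TPM in replicate 6, 715 in replicate 3, 602 in replicate 1 and 268 in replicate 5, and it was 29.3 to 42.7 TPM in replicates 2, 4 and 7. Over the same 7 libraries the pancreas sum was 90.0 to 122 TPM. KO replicate 6, with the second highest liver sum, had the ninth highest pancreas sum (102 TPM). In WT the liver sum was 4573 TPM in replicate 8 and 15.5 to 130 TPM in the other 6, where the pancreas sum was 73.1 to 145 TPM. Both groups thus held liver-rich and liver-poor libraries.

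**Figure D3:**
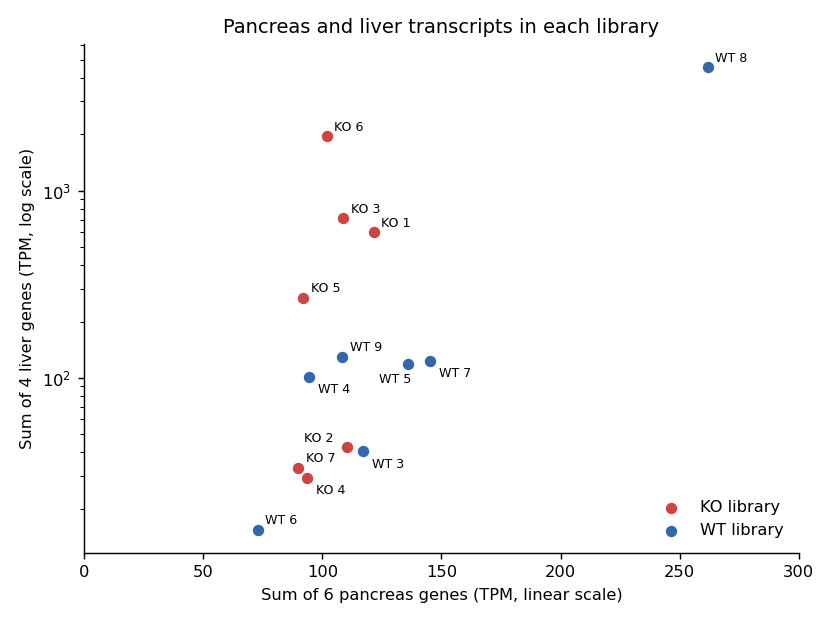
Summed TPM of the 4 liver genes (log axis) against summed TPM of the 6 pancreas genes (linear axis), 1 point per library, coloured by group. The other 13 libraries lie between 73.1 and 145 TPM of pancreas genes while their liver sums run from 15.5 to 1959 TPM; WT replicate 8 lies apart at 262 and 4573 TPM.

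Genes of 1 organ tracked each other over the 14 libraries and the 2 organs tracked each other less. Spearman's rho between pairs was 0.83 to 0.97 for the 15 pancreas pairs, 0.88 to 0.97 for the 6 liver pairs and 0.30 to 0.57 for the 24 pairs across organs. The points share libraries, and TPM values within a library share a fixed total. For the most abundant pair of each kind, on log2(TPM + 0.1) values, Ctrb1 and Cela2a had Pearson's r = 0.97 and rho = 0.95, and Alb and Apoa2 had r = 0.96 and rho = 0.94. The permutation p of these 4 values was 1e-05 or 2e-05 (n = 14, 100000 resamples, 2-sided, where 1e-05 is the smallest possible), and 3e-05 or less after adjustment over the 3 pairs tested. Leaving out the 2 libraries farthest from the median left r at 0.90 and 0.92.

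Ctrb1 and Alb had r = 0.63 (permutation p = 0.014) and rho = 0.49 (permutation p = 0.074, both unchanged by the adjustment over 3 pairs, n = 14). Without WT replicates 6 and 8, the 2 libraries farthest from the median of Ctrb1, r was 0.11 (permutation p = 0.74), and without WT replicate 8 alone it was 0.35 (permutation p = 0.24). The relation of this pair therefore rests on those libraries. Without WT replicate 8, the 24 pairs across organs had rho of 0.13 to 0.46 and r of 0.18 to 0.53. The relation between organs was not recomputed within batches, since the labels give no batch.

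WT replicate 8 lay above the others in both organs' genes, by unlike factors. Its TPM over the median of the other 13 libraries was 2.17 (Ctrb1) to 2.74 (Clps) for the pancreas genes and 34.4 (Alb) to 52.6 (Apoa1) for the liver genes. Over all genes tested the median of this factor was 1.02, and 4.13% of genes reached 2 or more. Of 17 other acinar enzyme genes tested, all lay under 5, with a median of 2.25. Of 47 other plasma protein genes tested, 37 lay at 10 or more, with a median of 37.9. A rise was not particular to these organs: 14 skeletal muscle genes tested lay at 1.03 to 16.4, with a median of 4.34.

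WT replicate 8 was the highest library for 3.70% of genes tested and WT replicate 6 the lowest for 26.5%, and both held for 0.938%. Both held for 9 of the 10 genes followed here. No sequencing depth can be read from TPM, so whether depth differs in these libraries is unknown.

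**Figure D4:**
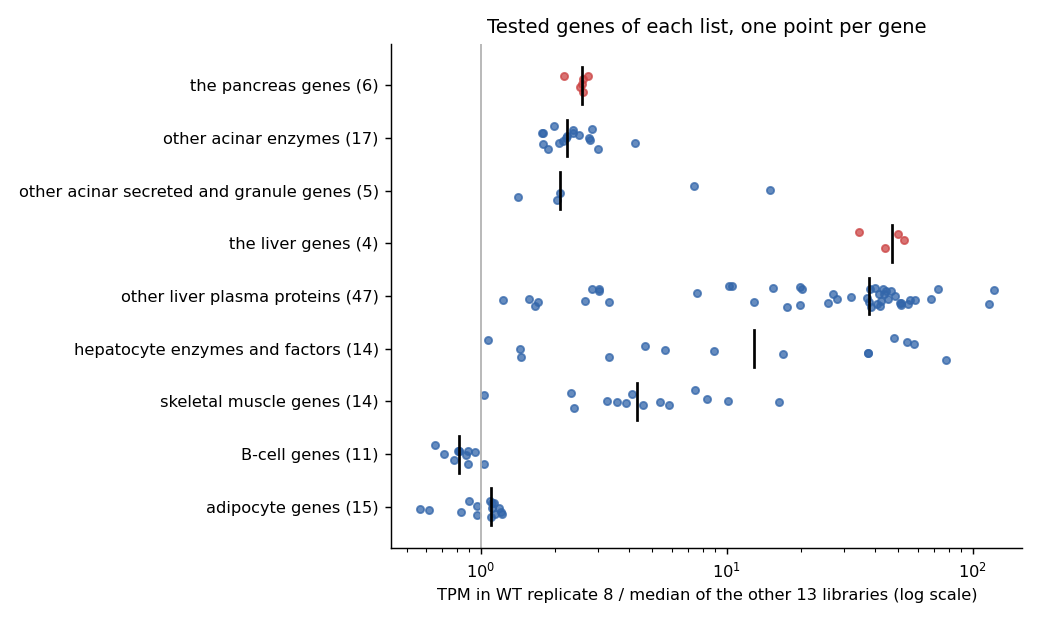
TPM in WT replicate 8 divided by the median of the other 13 libraries, on a log axis, for the tested genes of 9 lists; each point is a gene, the number in brackets counts them and the black bar is the median. The pancreas genes lie at 2.17 to 2.74 and the liver genes at 34.4 to 52.6, while B-cell and adipocyte genes lie around 1. Skeletal muscle genes lie at 1.03 to 16.4, with a median of 4.34.

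The remaining liver genes fell into those that followed Alb and those that did not. Among 62 other plasma protein genes that reached 1 TPM, 54 were highest in WT replicate 8. The 6 most abundant were Apoe, Trf, Hp, Rbp4, Apoc1 and Orm1, which are also made in fat. Apoe stood at 3791 to 10710 TPM and was 1.23 times the median of the others in WT replicate 8. Rbp4, the plasma carrier of retinol, stood at 131 to 842 TPM with a factor of 1.57. Mup20, a major urinary protein, stood at 1.10 to 700 TPM with a factor of 122, and Serpina1c, an α1-antitrypsin gene, at 0.49 to 411 TPM with a factor of 55.6.

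Enzymes of the hepatocyte were split in the same manner. Of 36 such genes, 34 reached 1 TPM and 30 of these were highest in WT replicate 8. Fabp1, the fatty acid binding protein of liver and gut, stood at 1.69 to 653 TPM. Cyp2e1 and Pck1, which adipocytes also express, stood at 358 to 3287 and 170.5 to 1178 TPM, with factors of 1.45 and 1.08 in WT replicate 8.

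The genes most like each set were searched among 20191 names whose mean was at least 0.1 TPM and which were above 0 in 7 libraries or more. The 10 with the highest rho to the pancreas sum were Amy2a4 (0.97), Try4, Sycn, Ctrl, Cela3b, 2210010C04Rik, Adora2b, Amy2a1, Tff2 and Cpb1 (0.84). Of these, 8 are on the fixed acinar lists; 2210010C04Rik, a trypsinogen-like gene, and Adora2b, an adenosine receptor, are not. The 10 most like the liver sum were Serpina1c (0.99), Slco1b2, Rdh7, Mbl2, Cyp2c54, Pzp, Cyp2c50, Ces1c, F2 and Elovl2 (0.96), of which Serpina1c, Slco1b2, Pzp and F2 are on the fixed liver lists. These rho values were over 14 libraries and are a description.

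The liver genes did not keep fixed proportions. The ratio of Apoa1 to Apoa2 was 0.312 to 0.686 in 12 libraries, 2.62 in WT replicate 4 and 5.69 in WT replicate 3. Apoa1 made up 35.6% of the liver sum in WT replicate 3, where Apoa2 made up 6.26%. Unlike Apoa2, Apoa1 is also made in quantity by the small intestine. Fabp2, the fatty acid binding protein of enterocytes, stood at 3.81 TPM in WT replicate 3 and 33.5 TPM in WT replicate 4. It stood at 56.8 TPM in WT replicate 8, at 10.5 TPM in KO replicate 6 and at 0.57 TPM or less in the other 10 libraries.

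Other intestinal genes were high in WT replicates 4 and 8 and, less evenly, in KO replicate 6 and WT replicate 3. In WT, Apoa4 was at 6.00 TPM in replicate 3, 16.2 in replicate 4 and 160 in replicate 8. In KO it was at 26.3 TPM in replicate 6, and it was at 1.95 TPM or less elsewhere. Krt20, a keratin of gut epithelium, was at 17.5 TPM in WT replicate 4 and 27.0 in WT replicate 8, but at 1.86 TPM in KO replicate 6 and 0.77 in WT replicate 3. The sum of 18 intestine genes was 12.3 to 31.6 TPM in 11 libraries, WT replicate 3 among them. It was 82.5 TPM in KO replicate 6, and in WT it was 127 TPM in replicate 4 and 373 TPM in replicate 8. Apoa4 is part of this sum and is also on the list of other plasma protein genes of the liver. It supplied 160 of the 373 TPM for WT replicate 8 and 16.2 of the 127 TPM for WT replicate 4. For KO replicate 6 it supplied 26.3 of the 82.5 TPM. The split of Apoa4 between liver and gut was not tested. Only 1 of the 18, Lgals4, reached 1 TPM in all 14 libraries. Lgals4 stood at 9.35 to 31.4 TPM, with a factor of 1.45 in WT replicate 8, so the lower sums hold much of it. Reg3b and Reg3g, made by gut as well as acinar cells, were at 28.3 and 16.6 TPM in WT replicate 8 and at most 3.68 and 1.23 TPM in the others. The part of intestinal RNA in the Apoa1 values was not tested.

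Ttr departed from Alb in other libraries. The ratio of Alb to Ttr was 5.24 to 14.4 in 12 libraries, 46.7 in WT replicate 6 and 54.8 in KO replicate 7, where Ttr was at 0.19 and 0.48 TPM. At such levels the 2 decimals of the table limit the ratio. In these libraries Alb was at 8.88 and 26.3 TPM, and the ratio of Alb to Apoa2 was 2.04 in WT replicate 6 and 6.52 in KO replicate 7.

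Lists of other organs were mostly near 0, and some were high in the liver-rich libraries. Among 12 kidney genes only Kap reached 1 TPM, and it stood at 1.24 to 3.10 TPM in every library, at 1.88 TPM in WT replicate 8. Of 12 stomach genes 3 reached 1 TPM, and their list summed to 0.24 to 4.92 TPM. The epididymis and male tract list summed to 12.7, 6.31 and 1.73 TPM in KO replicates 6, 1 and 3 and to 3.91 TPM in WT replicate 8, which are the 4 libraries with the highest liver sums, and to 1.27 TPM or less elsewhere. Of the 22 genes on this list 11 were at 0 in all libraries. Epididymis genes on it, such as Crisp1 and Lcn5, did not reach 1 TPM. Only Tnp1, Tnp2, Prm1 and Prm2 did, so the name of the list does not name a source. The source of these transcripts and their part in the liver values were not tested. Krt8, a keratin of mesothelium and other epithelia, was at 26.0 TPM in WT replicate 8 and at 20.3 TPM or less in the others. Its median over the 14 libraries was 0.805 TPM. The mesothelium list as a whole went otherwise: its sum was 79.5 TPM in KO replicate 7 and 37.0 TPM in WT replicate 8. Krt18 and Krt19 were also highest in KO replicate 7, at 30.6 and 25.9 TPM, where the liver sum was 33.1 TPM. Salivary amylase Amy1 stood at 59.7 to 375 TPM and was at 171 TPM in WT replicate 8, close to its median of 168.

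Promoter sequences are shown for those of the 10 genes with a match, marked below, in the 120 bases before the start site. They were not picked by how the genes moved together. The source is the RefSeq promoter table of build GRCm38.p6, which holds 8 of the 10 genes. Each is the 120 bases before the start site, 5′ to 3′ on the gene's strand. Capitals mark TATAAA or ATAAAA near the start site, or GTTAAT, the core of a binding motif of the hepatocyte factor HNF1. They are Cela2a (chr4:141826006-141826125, minus strand), Ctrb1 (chr8:111691011-111691130, minus strand), Pnlip (chr19:58670245-58670364, plus strand), Prss2 (chr6:41521656-41521775, plus strand) and Alb (chr5:90460750-90460869, plus strand).
Cela2a promoter: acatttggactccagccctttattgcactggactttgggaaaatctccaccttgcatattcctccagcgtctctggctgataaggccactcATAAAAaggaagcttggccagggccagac
Ctrb1 promoter: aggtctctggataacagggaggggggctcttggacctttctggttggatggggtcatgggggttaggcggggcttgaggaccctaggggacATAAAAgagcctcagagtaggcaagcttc
Pnlip promoter: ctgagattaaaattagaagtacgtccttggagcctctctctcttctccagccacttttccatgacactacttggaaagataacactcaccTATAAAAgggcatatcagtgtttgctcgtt
Prss2 promoter: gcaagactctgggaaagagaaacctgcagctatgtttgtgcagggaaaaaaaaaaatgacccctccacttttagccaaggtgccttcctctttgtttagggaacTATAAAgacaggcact
Alb promoter: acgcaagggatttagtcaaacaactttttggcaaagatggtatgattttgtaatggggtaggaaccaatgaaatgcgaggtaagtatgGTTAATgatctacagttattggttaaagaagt
TATAAA or ATAAAA on the gene's strand begins 29 bases before the start site in Cela2a and Ctrb1, 30 in Pnlip and 16 in Prss2. Of 32851 promoters, 2.84% hold either, beginning 15 to 35 bases before the start site; of the other 4 genes in the table none does. GTTAAT, on either strand within 250 bases, is in 6.43% of promoters, among them those of Alb, Ctrb1 and Cpa1. A match of letters shows no binding.

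The comparison of genotypes asks whether the KO label goes with a different level of these transcripts. The test covered 14719 genes that reached 1 TPM in 7 or more libraries. Of these, 3 (0.0204%) were changed by limma on log2(TPM + 1) at an adjusted p under 0.05. All 10 genes followed here were tested and 0 of 10 were changed. None of the 10 had an unadjusted p under 0.05 (smallest 0.16, Cela2a), against 687 genes higher and 992 lower at that limit.

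All 6 pancreas genes had lower means in KO, as did 16 of 17 other acinar enzymes tested, none of which was called. At an unadjusted limma p under 0.05, 2 of the 17 were lower in KO and 0 were higher. Over all 14719 genes tested, 992 were lower and 687 higher at that limit. Genes that move together do not count as separate evidence. The log2 differences of the 6 pancreas genes, KO minus WT, ran from -0.22 (Pnlip, 95% interval -0.67 to 0.23) to -0.32 (Cela2a, -0.79 to 0.15), with a median of -0.28. The median over all genes tested was 0.04, and 6686 of the 14719 were negative. Their limma adjusted p ran from 0.59 to 0.68. The exact permutation p of single genes on log2(TPM + 0.1), unadjusted over 10 genes, was 0.19 (Cela2a) to 0.39 (Pnlip) with n = 7 each.

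These differences rest on a few WT libraries. Without WT replicate 8 the limma log2 difference was -0.09 for Prss2 and -0.04 for Pnlip. Without WT replicate 6, the lowest library, the exact permutation p fell under 0.05 for Cpa1 (0.012, difference -0.50), Cela2a (0.022, -0.46), Pnlip (0.045, -0.36) and Ctrb1 (0.0495, -0.38), unadjusted and with n = 7 and 6. The limma call did not change in either case.

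The 4 liver genes had wider intervals. The log2 difference, KO minus WT, was 0.58 for Alb (95% interval -1.89 to 3.04), 0.88 for Apoa2 (-2.07 to 3.82), 0.76 for Ttr (-2.01 to 3.53) and 0.04 for Apoa1 (-2.64 to 2.72). These values rest on single libraries. Without WT replicate 8 they were 1.40 for Alb, 1.79 for Apoa2 and 1.64 for Ttr, and without KO replicate 6 they were 0.07, 0.27 and 0.20. Apoa1 ran from -0.56 without KO replicate 6 to 0.89 without WT replicate 8. Their limma adjusted p ran from 0.79 to 0.99 with all libraries, and the exact permutation p from 0.56 (Apoa2) to 1.00 (Apoa1) with n = 7 each. On TPM without logs the sign of all 4 turned, with KO means lower by 11.4 TPM (Ttr) to 104 TPM (Alb), since the WT mean then rests on replicate 8. Without that library the WT mean of Alb was 48.7 ± 26.6 TPM (SD, n = 6) against 245 ± 309 TPM in KO (SD, n = 7). Of 47 other plasma protein genes tested 34 were positive and 0 were called. At an unadjusted limma p under 0.05, 5 of the 47 were lower in KO and 0 were higher. Over all genes tested, 8033 of 14719 were positive.

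**Figure D5:**
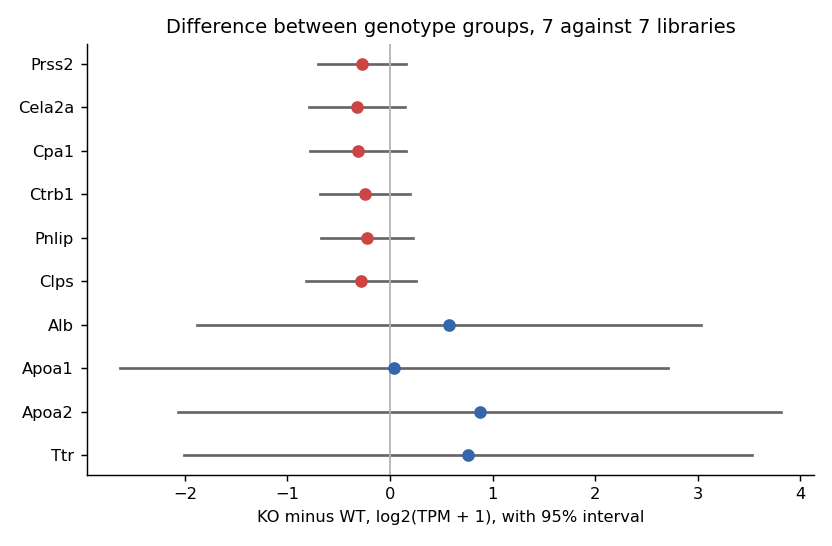
Difference between the group means on the log2(TPM + 1) scale, KO minus WT, for the 10 genes, with the 95% interval of the limma fit (n = 7 libraries a group). All 10 intervals include 0, and those of the 4 liver genes are several times wider than those of the 6 pancreas genes.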

How the data were processed

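Adipose tissue RNA was made into Illumina TruSeq libraries, per the labels' protocols. The deposited table gives TPM values by the authors, 56552 rows by 14 libraries, and each library column has the same total. Bowtie 0.12.2 and the builds mm8 and mm9 are named in the submitters' processing notes, with no role. The program behind the TPM values, the strand setting and the handling of shared reads are likewise not given in the sources used. TPM keeps no read number, so depth is unknown and the spread between libraries is the error. A TPM value is a share of a fixed total, so abundant transcripts lower the rest.

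Rows of the same name were summed. KO and WT were compared with limma-trend (limma 3.58.1, R 4.3.3) on log2(TPM + 1), with a robust prior, 2-sided and Benjamini-Hochberg adjusted over 14719 genes, which was tested on simulated data. Single genes were tested by exact permutation over 3432 partings of the libraries, where 0.000583 is the smallest p. Correlations used scipy 1.17.1. The edgeR test planned for counts did not apply to TPM. Windows of 31 bases came from GENCODE M21 transcripts, and promoters from the RefSeq table of GRCm38.p6. The 10 genes and all lists were chosen with earlier results of these data known. Named genes were the 10, up to 6 of each list by mean TPM, the 10 most like each sum, and genes the comparison of libraries turned on; not all are given. Alternatives varied the pseudocount, the filter, the scaling, the summing of rows, the set of libraries and a replicate block.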

Additional observations from a re-analysis of the deposited data

Results flagged for a closer look

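In groups of 7 libraries, a value was looked at again where its gap to the nearest library took up an unusually large share of the group's range. The limit used marks about 1 in 20 groups by chance where values are normally distributed. Here it was applied to TPM without logs and to ratios, so that rate does not hold for the widely spread liver genes. Whether the same libraries are marked on a log scale was not tested. In all, 26 groups were looked at, of which several share the same libraries. In WT, replicate 8 stood far above the other 6 for the pancreas genes Ctrb1 (94.04 TPM), Cela2a (52.66 TPM), Prss2 (45.78 TPM) and Pnlip (28.61 TPM). It did so for the liver genes as well, at 2152.86 TPM for Alb, 1233.46 TPM for Apoa2, 846.26 TPM for Apoa1 and 340.87 TPM for Ttr. Its ratio of the liver sum to the pancreas sum was 17.47.

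In KO, replicate 6 stood far above the other 6 for the liver genes but not the pancreas genes, at 879.06 TPM for Alb, 627.72 TPM for Apoa2, 301.63 TPM for Apoa1 and 150.26 TPM for Ttr, with a ratio of the liver sum to the pancreas sum of 19.22. Its pancreas genes lay within the range of the other KO libraries. Other transcripts were high in it too: its skeletal muscle sum was 9256 TPM against at most 1519 in the other KO libraries, and its intestine sum 82.5 TPM against at most 30.5. Of that intestine sum, 26.3 TPM came from Apoa4, which is also on a liver list.

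Proportions among the liver genes stood apart in 3 libraries. The ratio of Apoa1 to Apoa2 was 5.685 in WT replicate 3. The ratio of Alb to Ttr was 54.75 in KO replicate 7 and 46.74 in WT replicate 6, where Ttr was under 1 TPM.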

How the results depend on the processing

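None of the 10 genes was changed in any of the 24 alternatives. The number of changed genes, 3 in the analysis as reported (0 higher, 3 lower), was 1 without a filter on low values and with rows as deposited, 19 with quantile normalization (13 higher, 6 lower), 6 with TPM rescaled without mitochondrially encoded genes (2 higher, 4 lower), and 0 without KO replicate 7 and WT replicates 4 and 7, which hold few B-cell transcripts. With 1 library left out it ran from 0 (without WT replicate 8, among others) to 6 (without KO replicate 7). The causes were not tested. The log2 differences of the 6 pancreas genes kept their sign in 24 of 24 alternatives. That of Apoa1 turned in 9 of the 14 fits with 1 library left out, which ran from -0.56 to 0.89, and its difference on log2(TPM + 0.1) ran from -0.62 to 0.88. On TPM without logs the differences turned for Alb (-104.1), Apoa1 (-60.2), Apoa2 (-32.2) and Ttr (-11.4 TPM).

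Replicate numbers 3 to 7 occur in both groups. Same-numbered libraries correlated at -0.67 to 0.80 in their deviations from the group means, and 2 of 5 correlated best with their own number, so the numbers were not taken as pairs. With a replicate block in those 10 libraries 0 genes were changed, and without the block 0 in the same libraries; of the 10 genes followed 0 were changed in both. Depth is unknown, so values near 0, such as Ttr at 0.19 TPM, carry no counting interval.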
